A study of Mus musculus with 24 samples.

Results

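The 9 genes described here encode the gp130 receptor chains and the signaling proteins that act just below them: the receptors Il6st, Lifr, Cntfr, Il6ra and Il11ra1, the kinases Jak1 and Jak2, the transcription factor Stat3 and its feedback inhibitor Socs3. They were chosen by name and matched through their Ensembl identifiers, which found 9 of 9 among 47643 identifiers in the count files. RNA-seq was performed on 24 libraries, each made from 100 GFP-positive cells sorted from L4 DRG, the lumbar ganglia that hold the cell bodies of sensory neurons. There were 4 control and 4 Nav-Tsc2 mice with 3 technical libraries each, and in both genotypes the males were replicates 1 and 2 and the females replicates 3 and 4. All mice were 8-9 weeks old, of mixed C57BL/6 and AJ background, and their ganglia lay opposite to a sciatic nerve crushed 3 d earlier, so the sampled neurons were not themselves crushed.

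Every mouse carried Nav1.8-Cre and Rosa26-ZsGreen, so cells that had expressed Cre from the nociceptor gene Nav1.8 were fluorescent. Control mice were Tsc2 flox/+ and thus lost 1 copy of Tsc2 in the Cre-expressing cells. Nav-Tsc2 mice were Tsc2 flox/null, so Cre-expressing cells lost their last copy and all other cells kept 1. Tsc2 encodes a subunit of the complex that restrains the growth kinase mTORC1. Control mice had 20.9 ± 5.18 CPM of its mRNA and Nav-Tsc2 mice 8.86 ± 1.52 CPM (SD, n = 4 each), with no overlap between the genotypes (log2 fold change -1.24 ± 0.22 SE; adjusted p = 0.0040 by edgeR's quasi-likelihood test). CPM, the unit used throughout, is a count scaled to the size of its library by the TMM method.

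Cytokines of the interleukin-6 family signal through gp130, the product of Il6st. A ligand first binds a specific chain such as the interleukin-6, interleukin-11 or CNTF receptor, gp130 then pairs with itself or with the LIF receptor, and the JAK kinases attached to these chains phosphorylate STAT3, which enters the nucleus. Socs3 is itself switched on by STAT3 and shuts the receptor down. In sensory neurons this route is known for its activation after peripheral axon injury and for its part in axon regeneration. Because STAT3 is controlled by phosphorylation, the amount of its mRNA is not a measure of its activity.

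The question asked of these genes was whether their mRNA differed between GFP-positive cells of Nav-Tsc2 and control mice. Of the 9 genes, 8 passed the filter on low counts and were tested, and Il6ra did not. Stat3 was called higher and Il11ra1 was called lower in Nav-Tsc2 mice, a call being an adjusted p under 0.05 over all 17178 genes tested and a log2 fold change above 0.5 or below -0.5. The other 6 genes did not pass. Over all genes tested 17.1% were called, 8.00% lower and 9.12% higher, so 2 calls among 8 tested genes are close to the general level. The median log2 fold change was -0.20 for the 8 genes and 0.01 for all genes.

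Because the data bear on the mRNA of Stat3 and on that of its target Socs3, the promoter windows of both genes are shown, from 250 bases before to 50 bases after the start site, as RefSeq gives them for GRCm38.p6. Both are read 5′ to 3′ on the minus strand, and capitals mark the STAT element TTCNNNGAA, which reads the same on both strands. The Stat3 window lies at chr11:100939491-100939790 and the Socs3 window at chr11:117969317-117969616.
Stat3: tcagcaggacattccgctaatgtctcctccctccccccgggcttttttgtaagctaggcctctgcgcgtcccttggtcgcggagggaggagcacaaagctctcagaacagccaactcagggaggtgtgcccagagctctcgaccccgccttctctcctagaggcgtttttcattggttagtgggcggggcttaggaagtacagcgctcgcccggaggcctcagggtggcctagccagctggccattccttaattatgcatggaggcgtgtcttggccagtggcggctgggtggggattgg
Socs3: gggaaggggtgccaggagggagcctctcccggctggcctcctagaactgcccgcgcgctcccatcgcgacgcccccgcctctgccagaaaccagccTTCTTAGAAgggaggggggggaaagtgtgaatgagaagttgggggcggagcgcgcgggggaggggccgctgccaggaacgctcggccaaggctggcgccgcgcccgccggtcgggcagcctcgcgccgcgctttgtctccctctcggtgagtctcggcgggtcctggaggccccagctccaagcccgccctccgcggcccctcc
The Socs3 window held 1 element, TTCTTAGAA, which began at position -154 relative to the start site. The Stat3 window held 0. RefSeq promoters were found for 9 of the 9 genes, in 16 windows of the same length, and the Socs3 window was the only 1 of the 16 with the element. Among all 32851 windows, 8.30% held it. A match describes these letters only, and factor binding was not measured.

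The levels of the 9 genes spanned a wide range when divided by the exon length of each gene, the scale on which these 9 levels are ordered here. Lifr was the most abundant in control mice, with a mean of 144 CPM per kb and a range of 119 to 164 over the 4 mice. Jak1 followed with 73.6 CPM per kb (38.1 to 96.2), Stat3 with 32.5 (28.2 to 35.0) and Il6st with 18.7 (11.6 to 23.7). The ranges of these 4 genes did not overlap. Socs3 had 9.02 CPM per kb (2.24 to 12.9), Cntfr 3.71 (2.96 to 5.07), Jak2 2.45 (1.65 to 3.21) and Il11ra1 1.64 (0.907 to 2.41). From Il6st down to Il11ra1 each range overlapped that of the next gene. Il6ra was last with 0.0133 CPM per kb (0 to 0.0325). In Nav-Tsc2 mice the ranges of Jak1, from 47.4 to 56.2 CPM per kb, and Stat3, from 46.0 to 55.6, overlapped.

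**Figure D1:**
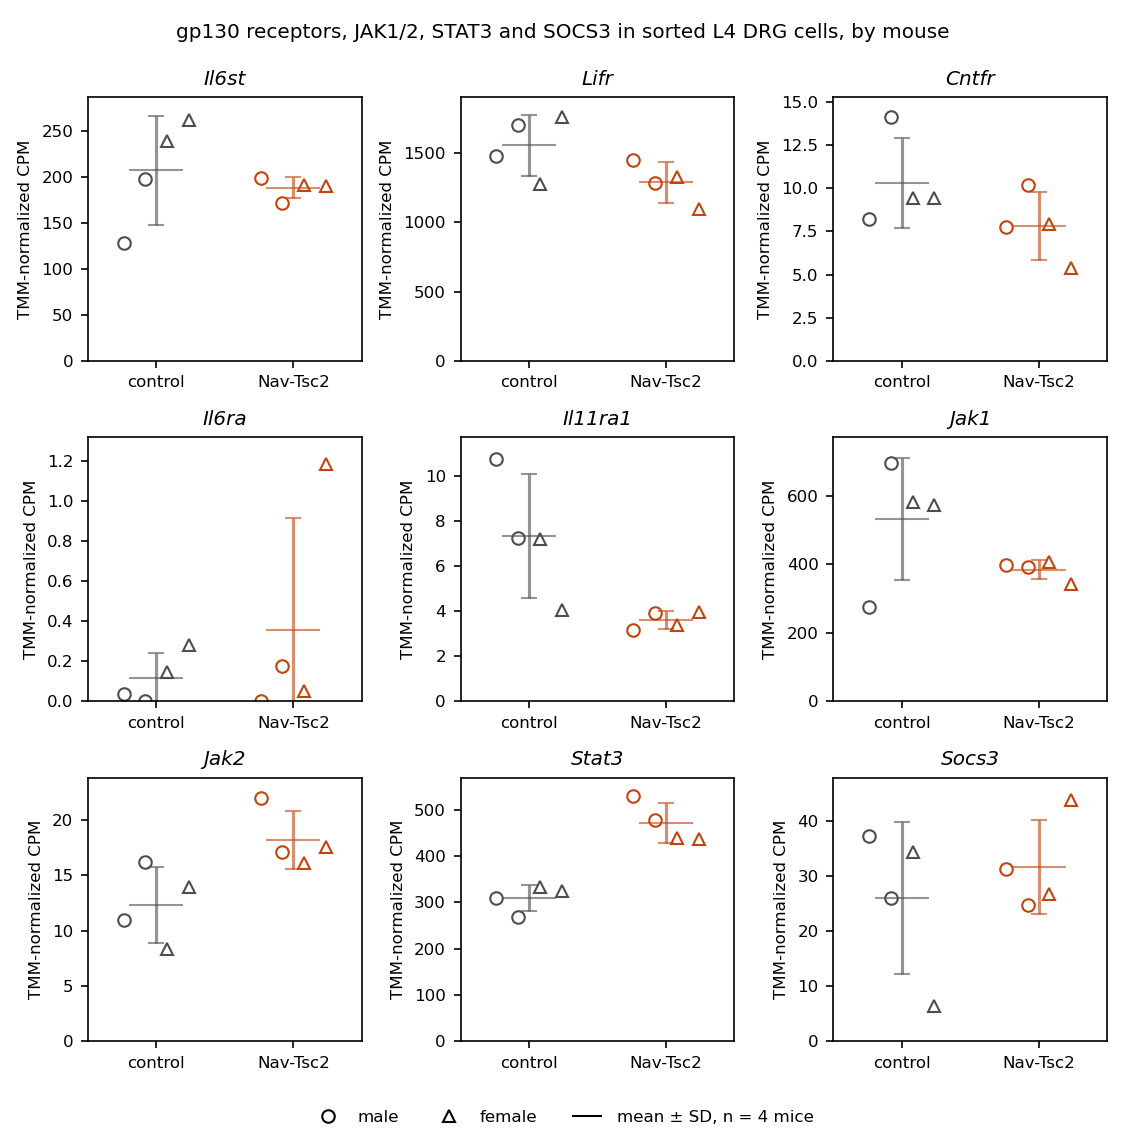
Level of the 9 genes in each mouse, in TMM-normalized CPM on a linear axis from 0 that differs between panels. Circles are male and triangles female mice, and bars give the mean ± SD of 4 mice; the 4 Nav-Tsc2 mice lie above the 4 control mice for Stat3 and below them for Il11ra1, and overlap them for the other 7 genes.

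Stat3 (chr11:100885098-100939540, minus strand) encodes the transcription factor on which gp130 signaling converges. Its level was 309.7, 269, 333 and 325 CPM in control replicates 1 to 4 and 529.6, 477, 440.2 and 438 CPM in Nav-Tsc2 replicates 1 to 4. Each Nav-Tsc2 mouse was above each control mouse. The mean rose from 309 ± 28.6 to 471 ± 42.9 CPM (SD, n = 4 mice each), a log2 fold change of 0.61 ± 0.10 SE or 1.52-fold (edgeR adjusted p = 0.0023). The single libraries did not overlap either, with 12 control libraries between 250.1 and 360.2 CPM and 12 Nav-Tsc2 libraries between 395 and 563 CPM. At the level of mice, 26.9% of all tested genes had genotypes without overlap. Exons of Stat3 share 0.756% of their length with its neighbour Stat5a on the other strand, and 0.555% of the 50-base stretches of its transcripts, the read length used, occur in transcripts of other genes. Stat3 was called higher in each of 15 further fits, with log2 fold changes between 0.55 and 0.64.

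Il11ra1 (chr4:41699989-41769474, plus strand) encodes the chain that binds interleukin-11 before gp130 is recruited. It had 10.8, 7.27, 7.21 and 4.05 CPM in control replicates 1 to 4 and 3.17, 3.92, 3.36 and 3.96 CPM in Nav-Tsc2 replicates 1 to 4. The lowest control mouse, replicate 4, lay just above the highest Nav-Tsc2 mouse, and the single libraries of the genotypes overlapped. The mean fell from 7.33 ± 2.75 to 3.60 ± 0.399 CPM (SD, n = 4 mice each), a log2 fold change of -1.02 ± 0.30 SE (edgeR adjusted p = 0.039). The call rested on a small margin: it was lost in 9 of 15 further fits, among them the replicate block (adjusted p = 0.115), no low-count filter (0.057) and 7 of the 8 fits with 1 mouse left out, the exception being control replicate 4. Of the 50-base stretches of its transcripts, 46.3% also occur in those of the near-identical copies Gm13305 and Il11ra2, which had 0 counts in all 24 libraries, and since reads with several matches were not counted, the level of Il11ra1 is uncertain. Alignments with several matches made up 37.5% to 39.6% of control and 39.3% to 42.6% of Nav-Tsc2 libraries, and their part in this difference was not tested.

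**Figure D2:**
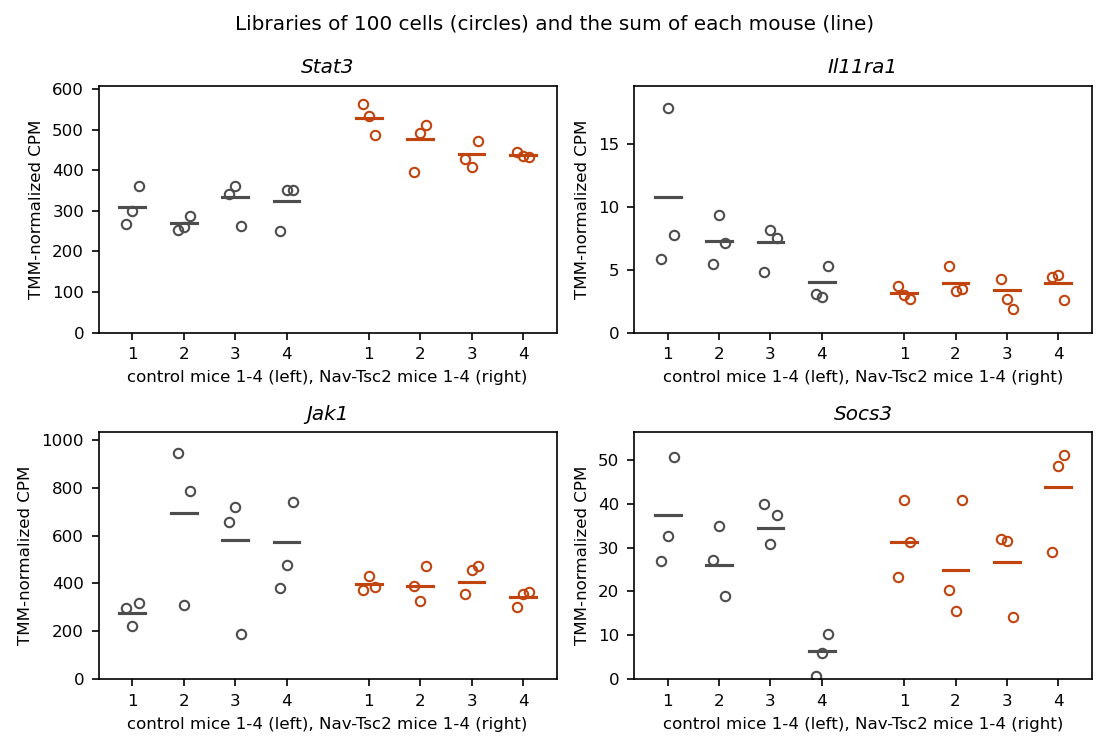
Level of Stat3, Il11ra1, Jak1 and Socs3 in the 24 libraries of 100 cells (circles) and in each mouse after summing its 3 libraries (lines), in TMM-normalized CPM from 0. Stat3 separates the genotypes in every library, with 360.2 CPM as the highest control and 395 CPM as the lowest Nav-Tsc2 value, whereas Jak1 varied between 189 and 944 CPM within control mice.

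The shared receptor chains showed no called difference. Il6st (chr13:112464070-112510086, plus strand), which encodes gp130 itself, had 128, 199, 239.7 and 263 CPM in control replicates 1 to 4 and 199, 172, 192 and 191 CPM in Nav-Tsc2 replicates 1 to 4. Nav-Tsc2 mice lay within the range of control mice (log2 fold change -0.14 ± 0.19 SE; edgeR adjusted p = 0.667). Lifr (chr15:7090614-7197489, plus strand) encodes the LIF receptor, the partner of gp130 for LIF and CNTF. Its level was 1479, 1702, 1279 and 1764 CPM in control and 1452, 1283, 1328 and 1094 CPM in Nav-Tsc2 mice. The genotypes overlapped (log2 fold change -0.27 ± 0.12 SE; edgeR adjusted p = 0.148).

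The other ligand-binding chains, Cntfr and Il6ra, were not called. Cntfr (chr4:41657498-41697089, minus strand) encodes the membrane-anchored CNTF receptor alpha chain. It had 8.25, 14.1, 9.45 and 9.43 CPM in control and 7.75, 10.2, 7.95 and 5.38 CPM in Nav-Tsc2 mice, with overlap between the genotypes (log2 fold change -0.40 ± 0.25 SE; edgeR adjusted p = 0.299). Il6ra (chr3:89864059-89913196, minus strand) encodes the interleukin-6 binding chain. It had 0.0338, 0, 0.145 and 0.281 CPM in control and 0, 0.177, 0.0490 and 1.18 CPM in Nav-Tsc2 mice, and was not tested. A count was present in 4 of 12 control and 6 of 12 Nav-Tsc2 libraries, 24 and 83 counts in all, and 2.29% of its 50-base stretches occur in transcripts of Gm42809. Reads were amplified without molecular identifiers, so the number of starting molecules behind such counts is unknown.

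The kinases did not pass the test in either direction. Jak1 (chr4:101152367-101265282, minus strand), the main kinase bound to gp130, had 276, 696, 582 and 574 CPM in control and 397, 390.3, 406 and 343 CPM in Nav-Tsc2 mice. Control replicate 1 lay below all Nav-Tsc2 mice and the other 3 control mice above all of them (log2 fold change -0.47 ± 0.23 SE; edgeR adjusted p = 0.189). Without control replicate 1 the difference was called lower (log2 fold change -0.69, adjusted p = 0.0029). Jak2 (chr19:29251828-29313080, plus strand), a kinase shared with many cytokine and hormone receptors, had 11.0, 16.2, 8.30 and 13.9 CPM in control and 22.0, 17.1, 16.1 and 17.6 CPM in Nav-Tsc2 mice. Control replicate 2 overlapped the lowest Nav-Tsc2 mouse, replicate 3 (log2 fold change 0.56 ± 0.22 SE; edgeR adjusted p = 0.098). Jak2 passed when control replicate 2 was left out (log2 fold change 0.72, adjusted p = 0.0495) and in the fit of 24 libraries in which the mouse was a random effect (log2 fold change 0.62, adjusted p = 0.030).

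Socs3 (chr11:117966079-117970047, minus strand), the feedback inhibitor whose promoter window held the STAT element, was not called. It had 37.3, 26.1, 34.4 and 6.48 CPM in control and 31.3, 24.8, 26.8 and 43.8 CPM in Nav-Tsc2 mice. Control replicate 4 was low in all 3 of its libraries, at 0.674, 5.84 and 10.2 CPM, and otherwise the genotypes covered the same range (log2 fold change 0.28 ± 0.44 SE; edgeR adjusted p = 0.711). Without control replicate 4 the log2 fold change was -0.04 (adjusted p = 0.922). Whether the change of Stat3 differed from that of Socs3 was not tested.

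**Figure D3:**
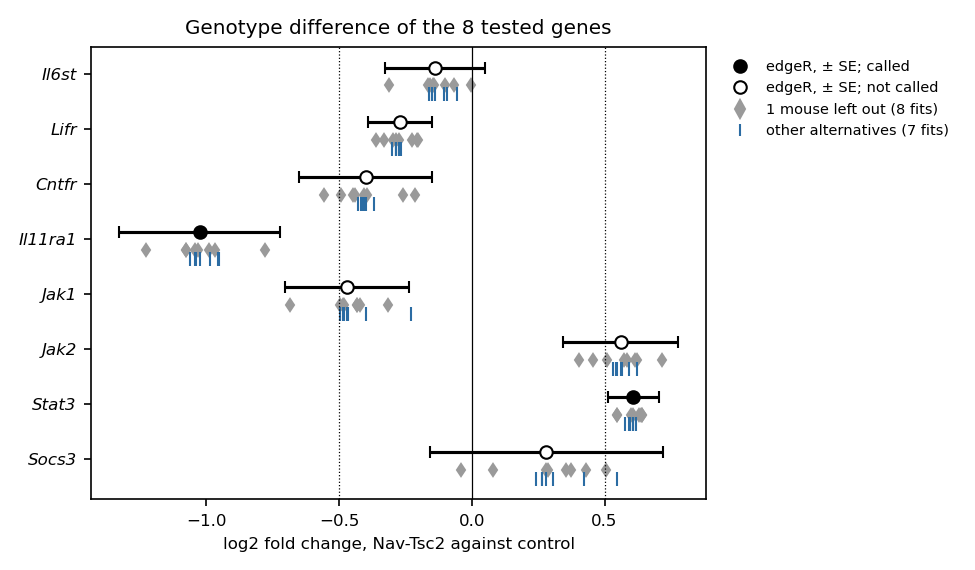
Log2 fold change of the 8 tested genes, Nav-Tsc2 against control mice, with SE from edgeR (filled circles, called; open circles, not called), and below each the values with 1 mouse left out (diamonds) and under 7 other alternatives (ticks). Dotted lines mark the thresholds of -0.5 and 0.5; Stat3 stays between 0.55 and 0.64 in every fit, Jak1 ranges from -0.69 to -0.23, and Socs3 from -0.04 to 0.55.

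Technical libraries varied least for Lifr and Stat3. The SD between the 3 libraries of a mouse, on the scale of log2(CPM + 1), was 0.16 for Lifr, 0.18 for Stat3 and 0.28 for Il6st, 0.32 for Il6ra, and between 0.42 and 0.68 for Il11ra1, Jak2, Jak1, Cntfr and Socs3. The SD between mice of a genotype was 0.13 for Stat3 and 0.82 for Socs3, the lowest and highest of the 9 genes.

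The genotype difference of each gene was also taken within each sex. Stat3 was higher in both, with a log2 fold change of 0.80 ± 0.11 SE in males (edgeR adjusted p = 0.0032) and 0.42 ± 0.11 SE in females (adjusted p = 0.057). Its interaction of genotype and sex did not pass (difference -0.38 ± 0.15 SE, female minus male; adjusted p = 0.491). Il11ra1 had log2 fold changes of -1.35 in males and -0.62 in females, Il6st 0.18 and -0.39, and Socs3 -0.18 and 0.79. The sign of Il6st and of Socs3 thus differed between the sexes, but for none of the 8 genes did the interaction pass (edgeR adjusted p between 0.491 and 0.988). Over all genes 0.00582% had an interaction past an adjusted p of 0.05, which is 1 gene, and 1583 had an unadjusted p under 0.05.

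Of 72 further genes of the pathway, in 7 lists, 56 passed the filter, of which 7 were called higher and 7 lower. This is 25% of those tested, against 17.1% of all genes, and the median of their log2 fold changes was -0.04. The 17.1% of all genes is the level to set beside the calls of each list and marker set below.

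**Figure D4:**
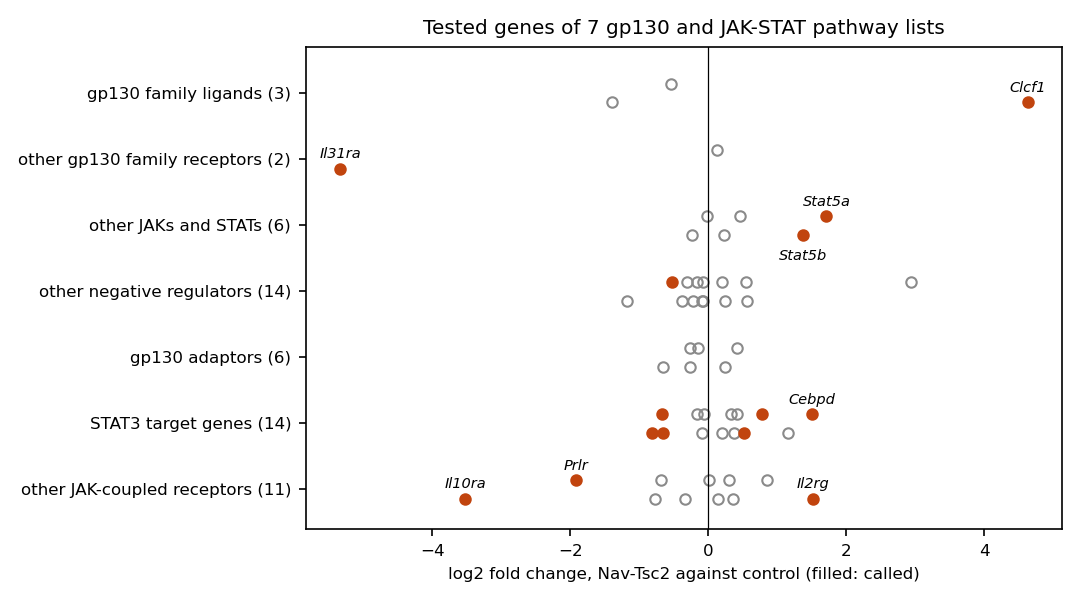
Log2 fold change of the 56 tested pathway genes, Nav-Tsc2 against control mice, in 7 lists with the number tested in parentheses; each circle is a gene and filled circles are the 14 that were called. Clcf1 at 4.63 and Il31ra at -5.34 lie at the ends of the range, and no gp130 adaptor was called.

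Among the ligands, 1 of the 3 tested was called higher and 0 lower, and 6 of 9, among them Lif, Cntf, Osm and Il11, had under 0.5 CPM in every mouse. Of the exons of Cntf, 78.9% overlap Zfp91 on the other strand, so in counts that ignore strand its low value says little. Clcf1 encodes a secreted cytokine that binds the CNTF receptor and signals through gp130 and the LIF receptor. Clcf1 had 0, 0.151, 1.23 and 0.662 CPM in control and 11.2, 14.1, 10.3 and 14.9 CPM in Nav-Tsc2 mice. Neither mice nor libraries overlapped, with 3.11 CPM as the highest control and 7.21 CPM as the lowest Nav-Tsc2 library (log2 fold change 4.63 ± 0.91 SE; edgeR adjusted p = 0.00675). A count of Clcf1 was present in 7 of 12 control and 12 of 12 Nav-Tsc2 libraries. Clcf1 was called in each of 15 further fits, with log2 fold changes from 4.21 to 5.56 with 1 mouse left out, the highest without control replicate 3, and 6.36 with the mouse as a random effect.

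Of the other receptors of the family, 1 of the 2 tested was called lower. Il31ra encodes the binding chain for the itch cytokine interleukin-31, which pairs with the oncostatin M receptor rather than with gp130. It had 4.06, 27.3, 32.2 and 22.6 CPM in control and 0.185, 0.212, 0.604 and 1.10 CPM in Nav-Tsc2 mice, with no overlap of mice (log2 fold change -5.34 ± 0.77 SE; edgeR adjusted p = 0.00139). Single libraries did overlap, with 0.277 CPM as the lowest control and 2.18 CPM as the highest Nav-Tsc2 library. The call was lost in the fit of 24 libraries in which the mouse was a random effect (adjusted p = 0.059), and without Nav-Tsc2 replicate 4 the log2 fold change was -5.98. Its partner Osmr, the most abundant gene of this list, had 37.0, 137, 77.6 and 64.8 CPM in control and 101, 106, 82.8 and 55.8 CPM in Nav-Tsc2 mice, and the genotypes overlapped (log2 fold change 0.13 ± 0.35 SE; edgeR adjusted p = 0.848).

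Of 6 other JAK and STAT genes tested, 2 were called higher and 0 lower. Stat5a and Stat5b, adjacent genes for transcription factors of growth hormone, prolactin and interleukin-2 family receptors, lie beside Stat3 on the same chromosome. Stat5b had 25.4, 34.3, 18.9 and 24.9 CPM in control and 63.5, 64.2, 82.2 and 57.2 CPM in Nav-Tsc2 mice (log2 fold change 1.37 ± 0.19 SE; edgeR adjusted p = 0.000991). Stat5a had 6.15, 3.31, 1.55 and 3.33 CPM in control and 11.4, 9.32, 11.4 and 15.0 CPM in Nav-Tsc2 mice (log2 fold change 1.71 ± 0.38 SE; edgeR adjusted p = 0.0111). Neither gene had mice that overlapped, and both were called in each of 15 further fits. The copies share 50-base stretches, 11.0% of those of Stat5b and 8.52% of those of Stat5a, so part of their reads may not be separable. Stat6, the most abundant gene of the list, had means of 78.1 and 77.4 CPM (log2 fold change -0.01 ± 0.11 SE; edgeR adjusted p = 0.957).

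**Figure D5:**
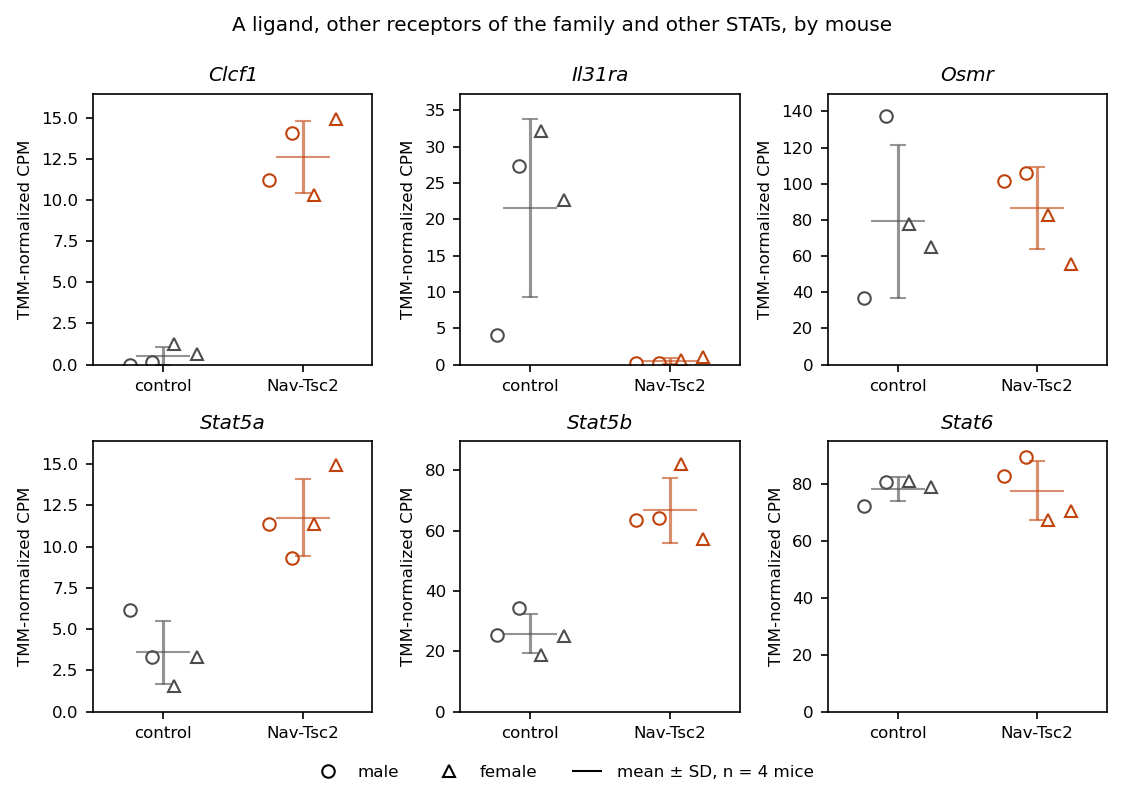
Level of the ligand Clcf1, the receptors Il31ra and Osmr, and Stat5a, Stat5b and Stat6 in each mouse, in TMM-normalized CPM from 0, with the mean ± SD of 4 mice; circles are male and triangles female. All Nav-Tsc2 mice lie above all control mice for Clcf1, Stat5a and Stat5b and below them for Il31ra, and Osmr and Stat6 overlap.

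Of the 14 other negative regulators, all tested, Pias1 was called lower and none higher. Pias1, which encodes a SUMO ligase that binds STAT proteins and was also the most abundant of this list, had 146, 129, 92.2 and 110.6 CPM in control and 83.9, 71.9, 94.5 and 80.6 CPM in Nav-Tsc2 mice. Nav-Tsc2 replicate 3 overlapped the lowest control mouse (log2 fold change -0.53 ± 0.15 SE; edgeR adjusted p = 0.0293), and the call was lost in 6 of 15 further fits, among them the replicate block (adjusted p = 0.078). The log2 fold change of Pias1 was -0.82 in males and -0.21 in females (interaction adjusted p = 0.443 by edgeR and 0.238 by DESeq2). Of the 6 gp130 adaptors, which link the receptor to the Ras and PI3K pathways, 0 were called by edgeR, and Grb2, the most abundant, had means of 97.2 and 80.8 CPM (log2 fold change -0.27 ± 0.09 SE; adjusted p = 0.061). Of these 6 adaptors, 4 had an unadjusted p under 0.05 by edgeR, as had 5797 of all 17178 genes tested. DESeq2 called 0, although 3 had an adjusted p under 0.05 without passing the fold change threshold. Mice of the genotypes did not overlap for 3 of the 6, against 26.9% of all tested genes.

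Of 14 tested genes that are known targets of STAT3, 3 were called lower and 3 higher, and the list had a median of 0.26 on the log2 scale. Bcl2l1, which encodes the survival protein BCL-XL, had 41.8, 31.8, 38.3 and 35.2 CPM in control and 23.7, 21.9, 23.7 and 23.6 CPM in Nav-Tsc2 mice (log2 fold change -0.66 ± 0.12 SE; edgeR adjusted p = 0.00361). Serpina3n, a secreted protease inhibitor and the most abundant of the list, had 699, 566, 395 and 379 CPM in control and 283, 289.8, 255 and 326 CPM in Nav-Tsc2 mice (log2 fold change -0.82 ± 0.19 SE; edgeR adjusted p = 0.0141). Its log2 fold change was -1.14 in males and -0.41 in females (interaction adjusted p = 0.353 by edgeR and 0.071 by DESeq2). The third that was lower was Myc (log2 fold change -0.67, edgeR adjusted p = 0.040), which was named after its values were seen and lost its call in 7 of 15 further fits, among them the replicate block (adjusted p = 0.10). By sex, Myc had a log2 fold change of -1.07 in males and -0.18 in females. Its interaction with sex had an adjusted p of 0.290 by edgeR and 0.0224 by DESeq2. Hif1a, the hypoxia response factor, had 64.7, 75.0, 74.9 and 85.6 CPM in control and 141, 134, 105 and 134 CPM in Nav-Tsc2 mice (log2 fold change 0.78 ± 0.12 SE; edgeR adjusted p = 0.00187). Cebpd, a transcription factor of acute-phase genes, had 2.15, 0.624, 1.41 and 0.903 CPM in control and 3.82, 4.21, 2.24 and 4.23 CPM in Nav-Tsc2 mice (log2 fold change 1.51 ± 0.45 SE; edgeR adjusted p = 0.0395), and its call was lost in 8 of 15 further fits, among them the replicate block (0.083). The third that was higher was Mcl1 (log2 fold change 0.52, edgeR adjusted p = 0.045), also named after its values were seen, which lost its call in 11 of 15 further fits, among them the replicate block (adjusted p = 0.090). The called targets thus went in both directions. The 6 are 42.9% of the 14 tested, against 17.1% of all genes.

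Of 11 tested receptors that use JAK kinases but not gp130, 2 were called lower and 1 higher, 27.3% against 17.1% of all genes. Prlr, the prolactin receptor, had 37.9, 28.6, 6.13 and 55.7 CPM in control and 8.00, 6.98, 9.12 and 9.74 CPM in Nav-Tsc2 mice (log2 fold change -1.92 ± 0.51 SE; edgeR adjusted p = 0.0263). Control replicate 3 lay below all 4 Nav-Tsc2 mice, and the call was lost in 8 of 15 further fits, among them the replicate block (adjusted p = 0.088). Il10ra, the interleukin-10 receptor chain, had 1.44, 5.18, 2.17 and 2.79 CPM in control and 0.411, 0.460, 0 and 0.135 CPM in Nav-Tsc2 mice (log2 fold change -3.52 ± 0.97 SE; edgeR adjusted p = 0.0293), and the call was lost in 5 of 14 further fits, among them the replicate block (adjusted p = 0.052). Il2rg, the common gamma chain of lymphoid cytokine receptors, had 1.20, 2.59, 1.74 and 1.10 CPM in control and 3.58, 5.30, 7.33 and 2.76 CPM in Nav-Tsc2 mice (log2 fold change 1.51 ± 0.42 SE; edgeR adjusted p = 0.031), of which 27.5% of 50-base stretches occur in transcripts of Gm20489. Il2rg lost its call in 5 of 15 further fits, all with 1 mouse left out, and had a log2 fold change of 2.54 with the mouse as a random effect. Ifngr2, the most abundant of the list, had means of 60.6 and 67.1 CPM and was not called (adjusted p = 0.442).

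Markers of other cells moved with the genotype for some lists. The 8 nociceptor markers were all present, with Scn10a, the gene for Nav1.8, between 509 and 790.3 CPM in control and between 577 and 658 CPM in Nav-Tsc2 mice, and Calca was called lower (log2 fold change -1.99). Mrgprd had 21.8 to 325 CPM in control and 485 to 598 CPM in Nav-Tsc2 mice, without overlap but not called (edgeR adjusted p = 0.094). The paper, which used DESeq2 at the same thresholds, lists Mrgprd as upregulated. Of 6 pan-neuronal markers Snap25 (log2 fold change -1.10) and Rbfox3 (-0.83) were called lower and Prph (0.72) higher, and of 6 markers of other sensory neurons Th was called higher (3.12). The part of these shifts in the results above was not tested. In these bulk samples fewer cells of a type and less RNA per cell cannot be told apart. The summed level of 6 endothelial markers was 0.325 to 1.85 CPM in control and 7.72 to 20.0 CPM in Nav-Tsc2 mice, from Flt1, Kdr and Ly6c1, while the defining markers Pecam1, Cdh5 and Cldn5 averaged under 1 CPM. The sum of 8 macrophage markers was 3.97 to 9.31 CPM in control and 8.47 to 25.7 CPM in Nav-Tsc2 mice. Cx3cr1 was called higher, and Aif1, C1qa and Ptprc averaged under 1 CPM. C1qb averaged 1.75 CPM in control and 0.574 CPM in Nav-Tsc2 mice, and Lyz2 2.35 and 2.43 CPM. Cd68 averaged 0.495 and 2.03 CPM and Csf1r 0.802 and 3.71 CPM. C1qb, Lyz2, Cd68 and Csf1r were not called. The part of the endothelial and macrophage markers in the rises of Clcf1, Il2rg and Cebpd, which were also low, was not tested. Genes with a count numbered 15925 to 18544 in control and 17891 to 20466 in Nav-Tsc2 libraries. The part of this in those rises was not tested either. The 5 satellite glia and 6 Schwann cell markers included 0 calls by edgeR. Sums for satellite glia were 526 to 807 CPM in control and 541 to 747 CPM in Nav-Tsc2 mice. For Schwann cells they were 1326 to 1660 and 1504 to 1792 CPM, mostly from Pmp22, with means of 1480 and 1569 CPM. The part of glial RNA in the levels of the 9 genes was not tested. Of the 11 glial markers 1, Mbp, had an unadjusted p under 0.05 and was called by DESeq2. The sum of 6 fibroblast markers was 73.1 to 236 CPM in control and 121 to 196 CPM in Nav-Tsc2 mice, with 0 calls by edgeR. For 3 red blood cell markers it was 1.08 to 1.93 and 0.392 to 0.672 CPM, also with 0 calls.

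The genes whose levels were most like those of Stat3 over the 8 mice, among 8445 genes with a mean of at least 10 CPM, were Trpv2 (Pearson's r = 0.991), Ppp2ca (0.986) and Rbfox2 (0.983), on the scale of log2(CPM + 1). Their log2 fold changes were 0.82, 0.80 and 0.82, so the likeness to Stat3 includes the difference between the genotypes. For Il6st they were Nt5dc3 (r = 0.961), Peg13 (0.952) and Gab1 (0.927), which is a gp130 adaptor of the lists above, and none of these 3 was called (adjusted p between 0.669 and 0.710). These correlations describe 8 mice of 2 genotypes that share a sort and a library protocol.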

How the data were processed

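Per the labels and methods, the authors used STAR for alignment to mm10 and HTSeq for counting. The deposited files hold raw read counts, 1 value per gene in each library. The kit does not mark strand. A deposited table of the authors' DESeq2 results (fold changes, standard errors, test statistics, p-values and normalized counts per mouse) was not used. The 3 libraries of each mouse were added up, giving 47959617 to 61290435 counts per mouse from libraries of 8339220 to 34228180. Lines that name no gene were left out and made up 47.6% to 55.9% of a library's total. The test was edgeR 4.0.16 (R 4.3.3; filterByExpr, TMM, quasi-likelihood F-test, two-sided, Benjamini-Hochberg over all genes tested), with DESeq2 1.42.0, the tool of the authors, and limma 3.58.1 as alternatives. SE was obtained as the absolute log2 fold change over the root of F. Some genes of the lists are not reported here and were left out of their counts. Scripts were tested on simulated data. The genes, lists and thresholds were chosen with earlier results of these data known. Named were the 9 genes, Tsc2, in each list up to 2 genes called lower and 2 higher with the smallest adjusted p and the most abundant gene, and the 3 genes most like Stat3 and Il6st. In the lists, most abundant means the highest mean CPM over both genotypes, not divided by exon length.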

Additional observations from a re-analysis of the deposited data

Results flagged for a closer look

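In 54 groups of 4 mice, for the 27 genes named from the lists, 3 groups had a mouse that stood apart by Dixon's ratio, which chance gives in about 1 group of 20. Il6ra was at 1.18 CPM in Nav-Tsc2 replicate 4, and the next highest of that genotype was at 0.177 CPM. Bcl2l1 was at 21.9 CPM in Nav-Tsc2 replicate 2 where the other 3 were between 23.6 and 23.7 CPM, so the distance was small. Myc was at 45 CPM in Nav-Tsc2 replicate 1 where the next lowest was at 53.6 CPM. The low Socs3 value of control replicate 4 did not reach the limit.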

How the results depend on the processing

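Of the 9 genes, 2 were called, and 3 (Stat3, Jak2 and Il11ra1) in the fit of 24 libraries. The number was 1 without the low-count filter, 1 with the replicate block and 1 to 2 with 1 mouse left out. Stat3 was called each time. The second gene was Jak1 without control replicate 1, Jak2 without control replicate 2 and Il11ra1 without control replicate 4. The further pathway genes called numbered 14, 8 with the replicate block and 7 to 16 with 1 mouse left out, the lowest without Nav-Tsc2 replicate 1 or 2. DESeq2 called 21 of them, 8 lower and 13 higher, and the fit of 24 libraries called 16, 5 lower and 11 higher, where edgeR called 7 each way. All genes called numbered 2941, and 2145 to 3502 with 1 mouse left out. Over all genes DESeq2 called 4166, 1940 lower and 2226 higher, and the fit of 24 libraries 3460, 1253 lower and 2207 higher. Signs reversed, with no call on either side, for Socs3 without control replicate 4 (-0.042; range with 1 mouse left out -0.042 to 0.50), for Osmr without control replicate 1 (-0.11; range -0.11 to 0.53) and for Stat6 without control replicate 2 (0.0030) or Nav-Tsc2 replicate 3 (0.051) or 4 (0.029; range -0.092 to 0.051). The interaction with sex passed for 0 of the 8 genes tested by edgeR and 0 of 9 by DESeq2, and 1 gene, Stat3, had an unadjusted p under 0.05 by each (0.034 and 0.048). On log2(CPM + 1), the first scale checked, mice of equal number deviated together at r = 0.0831, 0.108, 0.0186 and 0.107 over 8445 genes, not all above 0.1. On edgeR's log scale with a prior count of 2, added after the fits had been seen, r was 0.184, 0.185, 0.108 and 0.199. Mice of one sex with unequal numbers reached 0.198, so the pairing was not decided, and the replicate block is given beside each named call it ended. The counting error at these depths is unknown, because PCR without molecular identifiers hides the number of molecules.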

Other observations

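Clcf1 rose in both sexes, with a log2 fold change of 7.39 ± 0.96 SE in males and 3.73 ± 0.76 SE in females. The interaction with sex had an adjusted p of 0.385 by edgeR and 0.0028 by DESeq2. The male control mice had 0 and 0.151 CPM, so the size of the male value depends on how values near 0 are treated.

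Il6 had 12.5, 5.11, 2.60 and 3.81 CPM in control and 0.781, 1.68, 1.32 and 5.31 CPM in Nav-Tsc2 mice, and the genotypes overlapped (log2 fold change -1.40 ± 0.67 SE; edgeR adjusted p = 0.174).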
